A study of Homo sapiens with 2 samples.

Results

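The genes of the mitochondrial ribosomal proteins were examined in lists of RUNX2 and MTA1 binding peaks from the triple-negative breast cancer line MDA-MB-231. The members were the protein-coding genes of the RefSeq annotation whose symbol starts with MRPL or MRPS followed by a digit. This rule found 77 genes of 20033 protein-coding genes on chromosomes 1 to 22, X and Y, with 49 MRPL genes and 28 MRPS genes. They lay on 21 chromosomes, with none on chromosome 18, X or Y, and no chromosome held more than 8.

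Both libraries were made by CUT&Tag, in which transposase brought to the antibody cuts and tags nearby DNA, which is then sequenced. RUNX2 is a runt family transcription factor of bone development, and MTA1 is a subunit of the NuRD nucleosome remodelling and deacetylase complex. The cells were untreated, and each antibody had 1 library without a replicate, so differences between the lists were not tested. There were 61717 peaks for RUNX2 and 42698 for MTA1, and the number of reads behind them is unknown.

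The mitochondrial ribosome translates the few messages that mitochondrial DNA encodes, all of them for subunits of the respiratory chain and the ATP synthase. Its rRNAs come from mitochondrial DNA, whereas every protein of it is encoded in the nucleus, made in the cytosol and imported. The MRPL proteins belong to the large subunit, which holds the peptidyl transferase centre, and most MRPS proteins to the small subunit, which reads the message. MRPS30 and MRPS18A are exceptions, since their systematic names mL65 and mL66 place them in the large subunit. These genes are used in nearly every cell type, and so are the cytosolic ribosomal protein genes.

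The promoters of 5 members are shown first because the results below turn on them: MRPL38, MRPL54 and MRPS23, which had the RUNX2 peaks of highest score within 1 kb of an outer gene end, MRPL46, whose start shares a RUNX2 peak with its neighbour MRPS11, and MRPS21, which had no peak within 12 kb. Each run is the 250 bases before the RefSeq start on GRCh38.p14, written 5′ to 3′ on the strand of the gene. Capitals mark, on either strand, the ETS core CCGGAAG, the NRF1 part GCGCATG, the YY1 part AAGATGG and the RUNX cores TGTGGT and TGCGGT. The runs lie at chr17:75904885-75905134 (MRPL38, minus strand), chr19:3762432-3762681 (MRPL54, plus strand), chr17:57850045-57850294 (MRPS23, minus strand), chr15:88467389-88467638 (MRPL46, minus strand) and chr1:150293611-150293860 (MRPS21, plus strand).
MRPL38: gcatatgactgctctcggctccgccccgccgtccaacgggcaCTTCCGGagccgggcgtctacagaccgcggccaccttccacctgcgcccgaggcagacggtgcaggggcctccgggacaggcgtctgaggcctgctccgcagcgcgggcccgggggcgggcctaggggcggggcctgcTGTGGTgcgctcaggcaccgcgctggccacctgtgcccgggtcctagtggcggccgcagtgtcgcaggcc
MRPL54: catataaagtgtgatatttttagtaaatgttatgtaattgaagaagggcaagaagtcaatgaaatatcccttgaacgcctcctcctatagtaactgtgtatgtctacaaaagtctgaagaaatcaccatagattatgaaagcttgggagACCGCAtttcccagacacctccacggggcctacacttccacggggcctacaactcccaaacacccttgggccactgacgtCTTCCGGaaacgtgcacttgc
MRPS23: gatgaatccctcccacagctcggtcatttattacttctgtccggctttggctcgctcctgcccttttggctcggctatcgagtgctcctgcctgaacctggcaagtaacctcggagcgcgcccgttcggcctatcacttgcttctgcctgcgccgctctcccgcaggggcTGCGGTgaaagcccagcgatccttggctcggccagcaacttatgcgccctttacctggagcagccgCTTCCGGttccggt
MRPL46: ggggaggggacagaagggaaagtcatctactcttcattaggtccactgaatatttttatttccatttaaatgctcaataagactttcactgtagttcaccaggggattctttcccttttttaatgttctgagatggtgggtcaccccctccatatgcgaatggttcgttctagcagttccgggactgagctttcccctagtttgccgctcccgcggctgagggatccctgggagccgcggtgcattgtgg
MRPS21: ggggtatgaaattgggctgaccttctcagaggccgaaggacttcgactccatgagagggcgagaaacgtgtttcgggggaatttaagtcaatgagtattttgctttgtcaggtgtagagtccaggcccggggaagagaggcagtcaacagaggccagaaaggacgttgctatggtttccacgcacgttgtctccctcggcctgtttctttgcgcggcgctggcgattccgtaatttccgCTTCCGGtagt
In the first 3 runs an ETS core and a RUNX core stood in each, with the ETS core at bases -208 to -202 of MRPL38, -21 to -15 of MRPL54 and -14 to -8 of MRPS23, counted back from the start. The RUNX cores stood at -70 to -65, -101 to -96 and -80 to -75. These 3 runs were picked by RUNX2 score, so they cannot show how common RUNX cores are at strong peaks. In promoter windows of 300 bases RUNX cores stood in 22.2% of members with a RUNX2 peak, beside 18.9% of all protein-coding genes with a window. Of the next members by RUNX2 score, the MRPS24 window held a RUNX core and the MRPS26 window did not. MRPS21 had an ETS core at -11 to -5, and the MRPL46 run held none of the motifs. The 300-base window of MRPL46, which goes on past the start, did hold the YY1 part.

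A peak was counted for a gene when at least 1 bp of it lay within 1 kb of either end of the gene. RUNX2 peaks were found at 59 of the 77 members, or 76.6% (95% exact binomial interval 65.6% to 85.5%), beside 49.9% of all protein-coding genes. MTA1 peaks were found at 61 members, or 79.2% (68.5% to 87.6%), beside 50.9%. These intervals, like all others here, cover counting error over genes only. At least 1 list had a peak at 66 members, 85.7% against 56.9% of all protein-coding genes. Genes without expression in this line are part of that background, and their share is not known from these files.

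Most members had both. Peaks of both lists were present at 54 members, or 70.1% (58.6% to 80.0%), beside 43.9% of protein-coding genes. A RUNX2 peak alone was present at 5 members, or 6.49% (2.14% to 14.5%), beside 5.98%. An MTA1 peak alone was present at 7 members, or 9.09% (3.73% to 17.8%), beside 7.07%. The remaining 11 had neither, or 14.3% (7.35% to 24.1%), beside 43.1%. Given a peak in either list, 81.8% (70.4% to 90.2%) of members had both, near the 77.1% of all such genes. In 54 of the 54 members with both, a RUNX2 and an MTA1 peak overlapped by at least 1 bp, beside 95.4% of all genes with both.

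**Figure D1:**
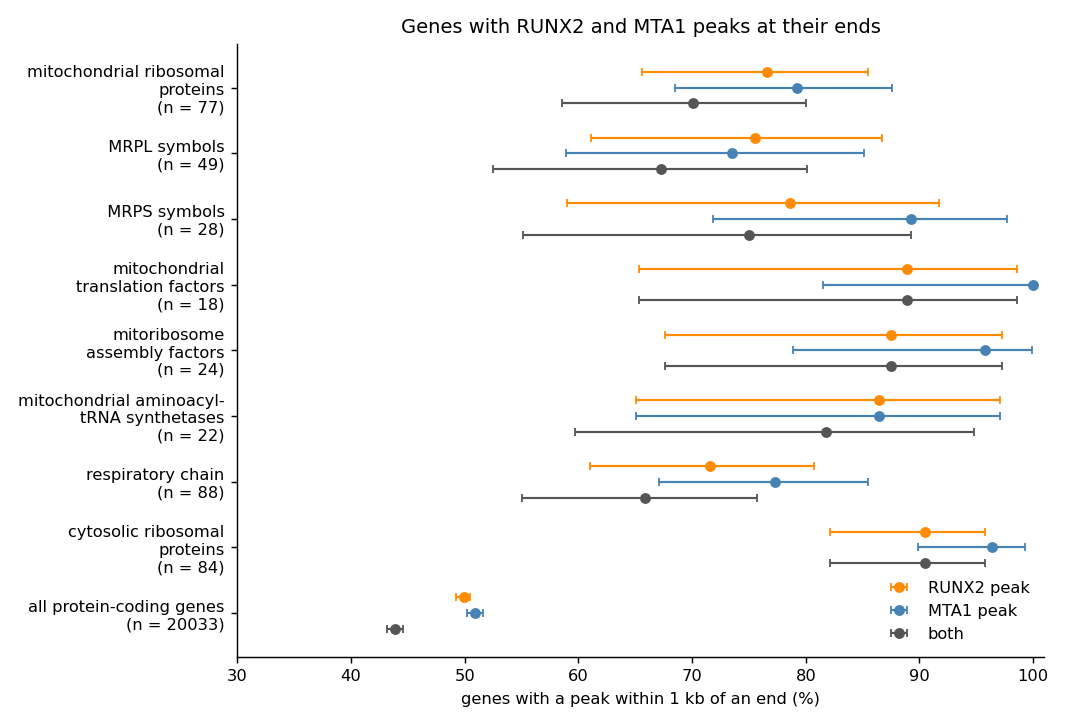
Share of genes with a RUNX2 peak, an MTA1 peak or both within 1 kb of an end (x axis, percent) for the mitochondrial ribosomal protein genes, their MRPL and MRPS groups, 5 other gene lists and all protein-coding genes. Points are shares, bars are 95% exact binomial intervals, and the axis starts at 30%. The members sit at 76.6%, 79.2% and 70.1%, above all protein-coding genes at 49.9%, 50.9% and 43.9% and below the cytosolic ribosomal proteins at 90.5%, 96.4% and 90.5%.

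RUNX2 shares were close in the MRPL and MRPS genes. Of the 49 MRPL genes, 37 had a RUNX2 peak (75.5%, 61.1% to 86.7%), as had 22 of the 28 MRPS genes (78.6%, 59.0% to 91.7%). MTA1 peaks were at 36 MRPL genes (73.5%, 58.9% to 85.1%) and at 25 MRPS genes (89.3%, 71.8% to 97.7%), and these intervals overlap. Both peaks were at 33 MRPL and 21 MRPS genes. Of the 11 members without any peak, 9 were MRPL genes (18.4% of the MRPL genes) and 2 MRPS genes (7.14%). These counts rest on the outer gene ends. MRPL24, MRPL36 and MRPL44, among the 9, had peaks of both lists at a start inside the gene. With MRPS30 and MRPS18A counted in the large subunit, RUNX2 peaks were at 39 of 51 large-subunit genes (76.5%, 62.5% to 87.2%) and 20 of 26 small-subunit genes (76.9%, 56.4% to 91.0%). MTA1 peaks were then at 38 (74.5%, 60.4% to 85.7%) and 23 (88.5%, 69.8% to 97.6%).

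The members were also set apart by origin, using the systematic ribosomal protein names in the annotation, where a prefix marks proteins shared with bacteria or found only in mitochondrial ribosomes. This split was made after the peaks had been seen, and 2 members carried no such name. RUNX2 peaks were at 34 of 44 genes of proteins shared with bacteria (77.3%, 62.2% to 88.5%) and at 23 of 31 genes of mitochondria-specific proteins (74.2%, 55.4% to 88.1%). The MTA1 counts were 34 of 44 and 25 of 31. A score rank of 90 or more, where the rank is the percent of peaks in the list with a lower score, was reached in the RUNX2 list by 6 of the 23 mitochondria-specific genes and 0 of the 34 shared ones, beside 17.6% of all genes with a RUNX2 peak. In the MTA1 list it was reached by 10 of 25 (40.0%) and 12 of 34 (35.3%), beside 26.7%. The RUNX2 difference was not tested and rests on the outer gene ends, since MRPL24 and MRPL34, both of shared proteins, had RUNX2 peaks of rank 90.6 and 97.3 at a start inside the gene.

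Scores were compared only through these ranks. The strongest RUNX2 peak of each member had a median rank of 70.6 (lowest 2.26, highest 96.4, 59 members), beside a median of 71.3 over the 9987 protein-coding genes with a RUNX2 peak. For MTA1 the median was 79.1 (lowest 2.54, highest 99.8, 61 members), beside 75.2 over 10205 genes. A rank of 90 or more was reached by 7 members in the RUNX2 list, 11.9% of those with a peak beside 17.6% of all genes with a peak. In the MTA1 list 22 members reached it, 36.1% beside 26.7%. Given a peak, the members were therefore close to other genes in RUNX2 rank.

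The difference from the background changed with the score that was asked for. With the 10000 peaks of highest score in each list, 11 members kept a RUNX2 peak, and their share of 14.3% was no longer above the 14.5% of all protein-coding genes. For MTA1, 32 members kept a peak, or 41.6% beside 24.6%. The MTA1 list is the shorter, so the same number of peaks reaches lower ranks in it, and the cuts are not alike. Counted by rank, 61.0% of members had a RUNX2 peak of rank 50 or more beside 37.2% of protein-coding genes, but 9.09% beside 8.77% had a peak of rank 90 or more. The MTA1 shares were 67.5% beside 38.5% and 28.6% beside 13.6%.

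**Figure D2:**
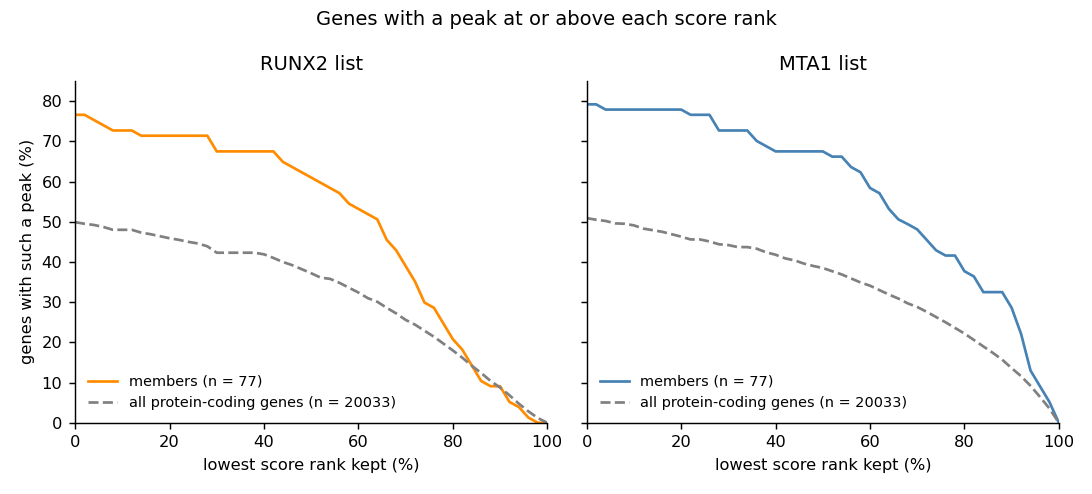
Share of genes with a peak at or above each score rank (x axis, percent of peaks with a lower score) in the RUNX2 list (left) and the MTA1 list (right), for the 77 members (solid) and all 20033 protein-coding genes (dashed). The RUNX2 lines meet in the upper ranks, at 9.09% and 8.77% for a rank of 90 or more, while the MTA1 lines still stand at 28.6% and 13.6%.

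The ranks of the lists rose together across members. Over the 54 members with both peaks the Spearman rho of the ranks was 0.53, beside 0.64 over the 8789 protein-coding genes with both. This is a description over genes of the same cells, whose peaks share position, chromatin and width. The MTA1 rank was higher than the RUNX2 rank in 39 of the 54 members (72.2%), beside 62.0% of all genes with both. Both ranks were 90 or more in 4 members (7.41%), beside 14.1% of all genes with both.

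MRPL38, for a mitochondria-specific protein of the large subunit, had the highest RUNX2 rank among peaks within 1 kb of an outer gene end. Its RUNX2 peak, at chromosome 17 from 75904901 to 75905254, reached a rank of 96.4 (score 37.3). The MTA1 peak at 75904884 to 75905321 reached a rank of 99.4 (score 50.8). Both overlapped the run of bases shown above.

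MRPL54, also for a mitochondria-specific protein of the large subunit, followed with a RUNX2 peak of rank 95.9 (score 35.4) at chromosome 19, 3762534 to 3763127. An MTA1 peak of rank 98.2 (score 40.7) lay over it at 3762528 to 3763114. Its start faces that of APBA3, whose end lies in the same window, so these peaks cannot be given to either gene alone. MRPS23, for a mitochondria-specific protein of the small subunit, had a RUNX2 peak of rank 95 at chromosome 17, 57850013 to 57850453, and an MTA1 peak of rank 93.9 at 57849893 to 57850317. It had no neighbouring gene end within 1 kb.

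The next RUNX2 ranks were those of MRPS26 at 93.0 and MRPS24 at 91.7, with MTA1 ranks of 80.7 and 83.0. The RUNX2 peaks were wide there, 802 bp at MRPS26 and 602 bp at MRPS24, against a median of 221 bp for the strongest RUNX2 peaks of the members. In both genes the MTA1 rank was the lower, and the read-through gene URGCP-MRPS24 ends in the window of MRPS24.

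In the MTA1 list MRPL34 came first, by the same windows, with a rank of 99.8 (score 59.5). This peak, at chromosome 19, 17305421 to 17305872, lay 13074 bp downstream of the outermost start, near the far end of the gene and beside ABHD8. MRPL34 has 4 listed starts, and the peak lay within 1 kb of one of them. A RUNX2 peak of rank 97.3 (score 41.4) lay under it at 17305433 to 17305842, just outside the window of the outer end, and exceeds the RUNX2 rank of MRPL38. Near its outermost start MRPL34 had an MTA1 peak of rank 57.1 and a RUNX2 peak of rank 59.4. MRPL50 had an MTA1 peak of rank 99.6 at chromosome 9, 101398388 to 101398910, and a RUNX2 peak of rank 72.6, at a start that faces ZNF189. MRPL45, whose protein sits at the exit of the peptide tunnel next to the inner membrane, had ranks of 98.0 for MTA1 and 90.2 for RUNX2. With MRPL38 and MRPL54 ranked 99.4 and 98.2, these were the 5 highest MTA1 ranks.

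**Figure D3:**
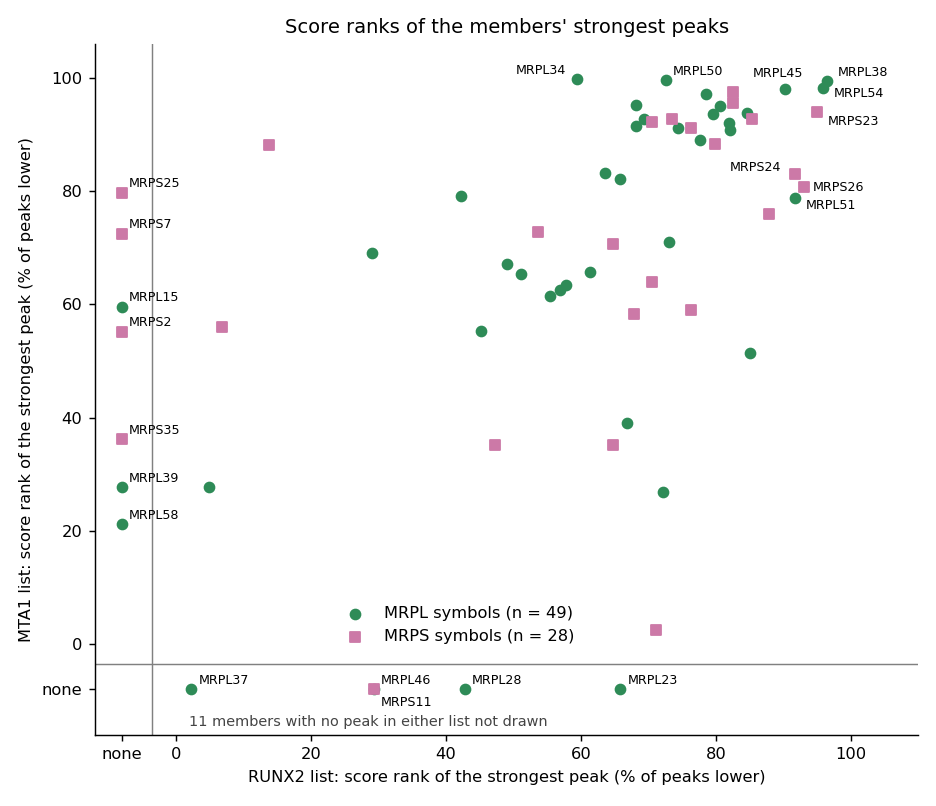
Score rank of the strongest RUNX2 peak (x axis) and MTA1 peak (y axis) within 1 kb of an end of each member, in percent of peaks of the list with a lower score, for MRPL (circles) and MRPS (squares) genes. Members with a peak in 1 list only are drawn in the margins, 5 for RUNX2 and 7 for MTA1. The densest group is at the upper right, with MRPL38 at 96.4 and 99.4, and the RUNX2-only members reach at most 65.8.

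Members with a peak in 1 list only had lower median ranks. The 5 RUNX2-only members had a median RUNX2 rank of 29.3, against 71.6 in the 54 members with both, and over all protein-coding genes these medians were 29.3 and 74.7. MRPL23, for a protein near the tunnel exit, had the highest of them with a rank of 65.8, followed by MRPL28 with 42.8. The lowest was that of MRPL37 with 2.26. The peaks at MRPL28 and MRPL37 were of the narrowest width of the list, 99 bp.

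MRPL46 and MRPS11, whose starts face each other, shared their only RUNX2 peak, at chromosome 15, 88467393 to 88467553, with a score of 5.22 and a rank of 29.3. It lies within the MRPL46 run shown above. The nearest MTA1 peak was 20523 bp from MRPL46 and 7135 bp from MRPS11. This was the only peak of either list in the windows of 2 members.

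The 7 MTA1-only members had a median MTA1 rank of 55.2, against 82.6 in the members with both. Over all protein-coding genes the medians were 35.2 and 79.7. MRPS25 had a rank of 79.7 and MRPS7, whose protein helps to organise the head of the small subunit, a rank of 72.5. The nearest RUNX2 peaks were 22179 bp and 4078 bp away. MRPL15 had a rank of 59.6, MRPS2 of 55.2 and MRPS35 of 36.2. MRPL39 had a rank of 27.7, and MRPL58, for a hydrolase that frees peptides from stalled mitochondrial ribosomes, a rank of 21.2. The lists hold called peaks only, so the absence of one does not separate weak signal from none.

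Several members had more than 1 peak of a list, 12 for RUNX2 and 15 for MTA1. No share over all protein-coding genes is given here, so whether these counts are unusual is not known. MRPL2 had 4 RUNX2 and 2 MTA1 peaks, the strongest with ranks of 81.9 and 92.0, and its windows also hold ends of CUL7 and KLC4. MRPL45 and MRPL21 had 3 RUNX2 peaks each. MRPS18B had 3 MTA1 peaks with ranks of 97.6, 81.0 and 56.6, the first of them 429 bp upstream of the start. MRPS6 also had 3, of rank 35.2 or lower. No member had strongest peaks of the narrowest width in both lists.

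The peaks sat at the starts of the genes. A start could be placed for 69 members, because the RefSeq promoter table gives their strand. MRPL2, MRPL10, MRPL13, MRPL15, MRPL21, MRPL23, MRPL35 and MRPS28 had no entry. The centre of the strongest RUNX2 peak lay at a median of -65 bp from the annotated start (quartiles -131 and 22 bp, 54 members), and within 500 bp of it in 53. For MTA1 the median was -39 bp (quartiles -114 and 13 bp, 56 members), and 53 lay within 500 bp. Centres were more often upstream than downstream, 38 against 16 for RUNX2 and 39 against 17 for MTA1.

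Far ends carried few peaks. Of 59 members longer than 3 kb with a known start, 45 had a RUNX2 peak within 1 kb of the start side (76.3%, 63.4% to 86.4%) and 2, MRPL45 and MRPS18B, had a RUNX2 peak at the far end (3.39%, 0.413% to 11.7%). The MTA1 counts were 47 (79.7%, 67.2% to 89.0%) and 5 (8.47%, 2.81% to 18.7%), the 5 being MRPL4, MRPL19, MRPL34, MRPL50 and MRPS18B. The far-end peak of MRPL34 is the one at a listed start inside the gene. Over 14419 protein-coding genes of that length the start side held a RUNX2 peak in 51.1% and an MTA1 peak in 53.3%, and the far end in 7.76% and 6.46%.

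**Figure D4:**
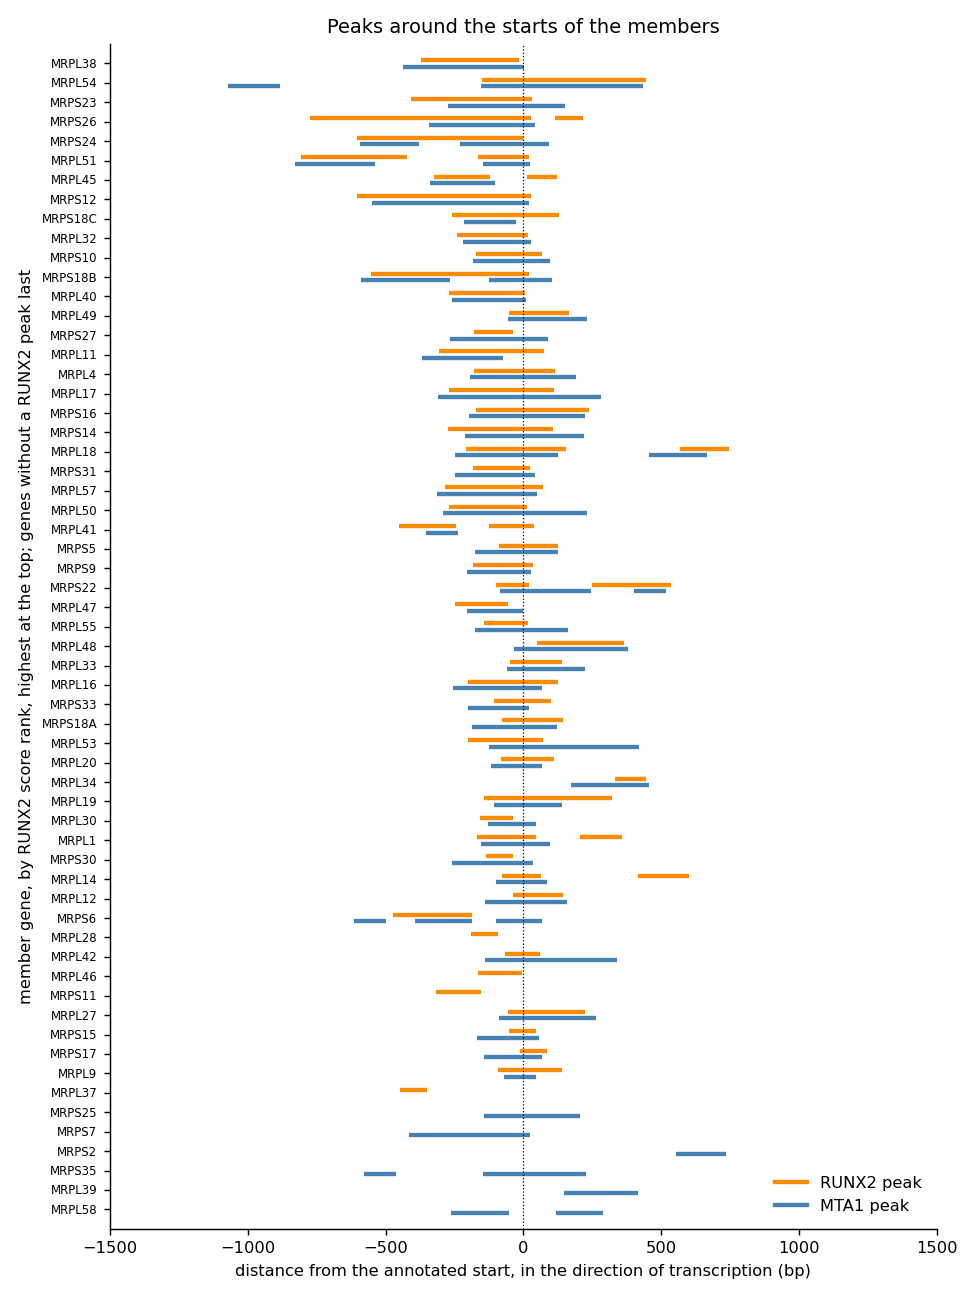
RUNX2 (orange) and MTA1 (blue) peaks drawn to scale around the annotated start of each member that has a known strand and a peak, with distance in the direction of transcription on the x axis (bp). Rows are ordered by RUNX2 score rank, and peaks farther than 1500 bp from the start are not drawn. Most bars of both colours cross or touch the start, with median centres at -65 and -39 bp, and some, such as those of MRPL51, MRPS12, MRPS18B and MRPS26, reach farther upstream.

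Among the 11 members without a peak, 3 had peaks at a start inside the annotated gene. The RefSeq gene of MRPL24 begins 1628 bp before the start listed in the promoter table. At that listed start lay a RUNX2 peak of rank 90.6 (chromosome 1, 156741119 to 156741546) and an MTA1 peak of rank 99.8 (156741041 to 156741516), which stand among the highest ranks of the family. MRPL36, 1597 bp from its outer end, had ranks of 64.9 and 52.8 there, and MRPL44, at 6609 bp, had ranks of 73.5 and 63.0. MRPS2 gained a RUNX2 peak of rank 42.0 at a second listed start. With peaks within 1 kb of any listed start, an alternative added after the data had been seen, 58 of 69 members had a RUNX2 peak (84.1%) and 59 an MTA1 peak (85.5%), beside 52.1% and 53.9% of protein-coding genes in the table.

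Of the other members without a peak, MRPL3, MRPL22, MRPL43, MRPL52, MRPS21 and MRPS34 had none at any listed start either, and MRPL13 and MRPL35 have no entry. The nearest peak to an end of MRPS21, of RUNX2, was 12385 bp away. At MRPL22, whose protein lines the peptide tunnel, an MTA1 peak was 2743 bp away. MRPL3 had an MTA1 peak of rank 24.4 at 2579 bp and no RUNX2 peak within 80363 bp of an end.

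Many members share their ends with other genes. The end of another protein-coding gene lay within 1 kb in 42 members, or 54.5% beside 28.5% of protein-coding genes. Facing starts, with the neighbour transcribed away on the opposite strand, were found in 18 of the 69 members of known strand, or 26.1% beside 10.1%. Of these 18, RUNX2 peaks were at 17, MTA1 peaks at 15 and both at 14. Of the other 51, RUNX2 peaks were at 37, MTA1 peaks at 41 and both at 36. No peak shares are given for the 1605 protein-coding genes with facing starts, so these counts stand without a background. The partners include TCP1 at MRPL18, PSMA2 at MRPL32, FAU at MRPL49, SARS2 at MRPS12 and PPP1R10 at MRPS18B.

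Shares were then taken by neighbour. Without a neighbouring end, 25 of 35 members had a RUNX2 peak (71.4%, 53.7% to 85.4%) beside 42.7% of such protein-coding genes, and 29 an MTA1 peak (82.9%, 66.4% to 93.4%) beside 42.9%. With a neighbouring end, the RUNX2 share was 81.0% (65.9% to 91.4%) beside 67.9% and the MTA1 share 76.2% (60.5% to 87.9%) beside 71.2%.

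Base composition differed as well. Promoter windows of 300 bases, from 250 before to 50 after the start, held a median of 24 CG dinucleotides in the 69 members (quartiles 20 and 28) and of 22 in 15842 protein-coding genes (quartiles 8 and 32). The background was therefore also taken from the 8811 protein-coding genes with at least 20, a choice made after the data had been seen. In it RUNX2 peaks were at 69.0%, MTA1 peaks at 71.3% and both at 63.2%. The 52 members with such windows stood at 73.1% (59.0% to 84.4%), 80.8% (67.5% to 90.4%) and 71.2% (56.9% to 82.9%). All of these intervals hold the background value. The floor of 20 does not match the sets in CG content, since the upper quartile of all protein-coding genes is above that of the members. The part of CG content in the peaks was not tested.

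The windows themselves were covered in most members. A RUNX2 peak overlapped the promoter window in 54 of 69 members (78.3%, 66.7% to 87.3%), beside 40.9% of all protein-coding genes in the table, and an MTA1 peak in 57 (82.6%, 71.6% to 90.7%), beside 44.5%. Members were next split by a peak within 1 kb of an outer gene end, which differs from a peak on the window. By that split the median CG dinucleotide count of the windows was 24 in members with a RUNX2 peak and 27 in those without. For MTA1 the medians were 25 and 21. MRPL24, MRPL36 and MRPL44 count there as without a RUNX2 peak, although one overlaps their windows. MRPL34, MRPL37 and MRPL48 count as with one, although none overlaps theirs. Medians by peaks on the window itself were not taken.

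Motifs in these windows were counted on both strands, as letters and not as sites. The ETS core CCGGAAG stood in 29 of 69 windows (42.0%, 30.2% to 54.5%), beside 14.2% of all promoter windows and 20.1% of those with at least 20 CG dinucleotides. The YY1 part AAGATGG stood in 23 (33.3%, 22.4% to 45.7%), beside 6.36% and 6.59%. It lay wholly before the start only in MRPL32, MRPL36, MRPL47, MRPL49, MRPL52, MRPS12 and MRPS16. In the other members' windows with the YY1 part, it reached past the start. The background shares were not split in this way, and whether these letters act as YY1 sites was not tested. ETS factors and YY1 are activators of many housekeeping genes. The NRF1 part GCGCATG stood in 7 (10.1%, 4.18% to 19.8%), beside 5.88% and 8.55%. NRF1 is known for its control of nuclear genes of mitochondrial function.

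The RUNX cores stood near the background share. TGTGGT or TGCGGT stood in 13 windows (18.8%, 10.4% to 30.1%), beside 18.9% of all promoter windows. Either form stood in 12 of the 54 windows of members with a RUNX2 peak (22.2%, 12% to 35.6%). It stood in 1 of the 15 without (6.67%, 0.169% to 31.9%), with overlapping intervals. The split is by peaks at the outer gene ends, whereas the windows lie at the listed starts. MRPL24, MRPL36 and MRPL44 are thus among the 15, although RUNX2 peaks overlap their windows. Over all protein-coding genes these shares were 19.6% and 18.2%. The ETS core stood in 23 of the 54 with a RUNX2 peak (42.6%, 29.2% to 56.8%) and in 6 of the 15 without (40.0%, 16.3% to 67.7%). Over all protein-coding genes these shares were 20.6% and 7.07%. With 15 members without a peak, these counts cannot show whether the family follows that difference.

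**Figure D5:**
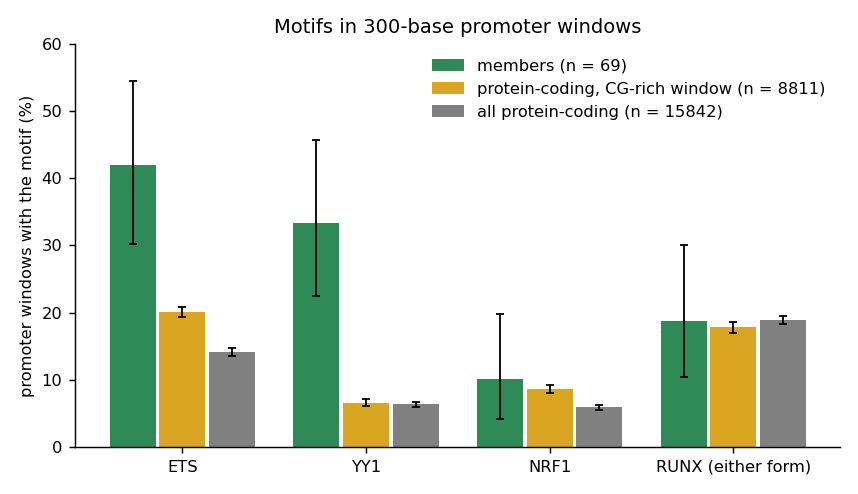
Share of 300-base promoter windows with each motif on either strand (y axis, percent) in 69 members, in 8811 protein-coding genes with at least 20 CG dinucleotides and in all 15842 protein-coding genes of the table. Bars start at 0 and error bars are 95% exact binomial intervals. ETS and YY1 letters stand in 42.0% and 33.3% of the members' windows, and RUNX cores in 18.8%, the same as the 18.9% of all windows.

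The other genes of mitochondrial translation had peaks at least as often, by lists chosen with earlier results of these data known. Of 18 listed factors, such as TUFM and MTIF2, 16 had a RUNX2 peak (88.9%, 65.3% to 98.6%) and 18 an MTA1 peak (100%, 81.5% to 100%). That list also holds genes outside initiation, elongation and release, such as OXA1L and LRPPRC. Of 24 assembly factors, such as ERAL1 and NSUN4, 21 had a RUNX2 peak (87.5%) and 23 an MTA1 peak (95.8%). Of 22 genes listed for mitochondrial aminoacyl-tRNA synthesis, 19 had a RUNX2 peak and 19 an MTA1 peak (86.4% each). They are synthetases, which charge the tRNAs, and QRSL1, GATB and GATC, subunits of an amidotransferase that acts on charged tRNA. The 5 ribosome proteins outside the naming rule, DAP3, PTCD3, CHCHD1, AURKAIP1 and GADD45GIP1, had a RUNX2 peak in 5 and an MTA1 peak in 4.

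The members were closest to the respiratory chain genes, of which 63 of 88 had a RUNX2 peak (71.6%, 61.0% to 80.7%), 68 an MTA1 peak (77.3%, 67.1% to 85.5%) and 58 both (65.9%, 55.0% to 75.7%). That list includes tissue-restricted forms such as COX6A2 and COX7B2. The cytosolic ribosomal protein genes were higher in each, with 76 of 84 for RUNX2 (90.5%, 82.1% to 95.8%), 81 for MTA1 (96.4%, 89.9% to 99.3%) and 76 for both. Whether the members differ from these lists was not tested. The median ranks of the strongest peaks were 73.7 for RUNX2 and 82.6 for MTA1 in the cytosolic list, and 76.2 and 80.3 in the respiratory chain.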

How the data were processed

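CUT&Tag libraries of untreated MDA-MB-231 cells were made with an antibody against RUNX2 or MTA1, as the labels name them. The suppliers in the labels differ from those in the methods of the study. The submitters' processing notes name CASAVA 1.4, Bowtie 0.12.8, MACS, MACS2 and the build hg19, without roles, thresholds or a control library. The authors deposited 1 peak list per library with positions and a score. Its scale is not given in the sources used here, so scores were used only by rank within a list.

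Genes and promoters came from RefSeq GRCh38.p14. The build was checked on the positions: 49.9% of protein-coding genes had a RUNX2 peak and 50.9% an MTA1 peak within 1 kb of an end, against 13.6% and 10.5% after a move of 100 kb, and 23 of 24 chromosomes, all but Y, gave the higher share unmoved. The positions were therefore read as GRCh38, against the build named in the notes.

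Shares carry 95% Clopper-Pearson intervals. No p-value was computed, since each antibody has 1 library and genes are not replicates. The step that joins peaks to genes was tested on simulated data. The members and lists were chosen with earlier results of these data known. Genes named are the members with the 5 highest ranks in each list, with a peak in 1 list only, with no peak, with several peaks of a list (6 members), or with narrowest peaks in both. MRPL4, MRPL18, MRPL19, MRPL32, MRPL49, MRPL51 and MRPS12 were named after their values were seen, and genes of other lists only to describe the list. Alternatives were other windows, the start side, higher scores, wider peaks, peak centres, members without neighbours, added ribosome proteins, CG-rich windows, listed starts and a stricter overlap. The tools were scipy 1.17.1, pandas 2.3.3, numpy 2.4.6 and matplotlib 3.10.9 under Python 3.11.15.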

Additional observations from a re-analysis of the deposited data

Results flagged for a closer look

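Peaks outside the comparisons lay on mitochondrial DNA, at the rRNA genes of the mitochondrial ribosome itself. In each list 5 peaks overlapped RNR1 or RNR2, of 17 RUNX2 and 15 MTA1 peaks on mitochondrial DNA. The share of mitochondrial DNA that these genes take up was not set beside the counts. Peaks of a called list are not independent counts, so these numbers carry no test. The highest ranks there were 97.4 for RUNX2 and 99.1 for MTA1. No control library was analysed beside them, and the part of untargeted transposition in them was not tested.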

How the results depend on the processing

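The first comparisons were of members with a RUNX2 peak, an MTA1 peak or both. Their shares stayed above those of all protein-coding genes wherever that background was recomputed, except with the 10000 peaks of highest score. There RUNX2 peaks were at 14.3% of members beside 14.5% of protein-coding genes, MTA1 peaks at 41.6% beside 24.6%, and both at 11.7% beside 12.2%. Keeping peaks from the median score upward gave the members shares of 61.0%, 67.5% and 54.5%. A window of 3 kb gave a RUNX2 share of 85.7%. Fewer peaks and a wider window move the shares by construction. The shares with overlapping peaks were not above the background. Peaks that overlapped over 50% or more of each were found in 70.4% of the members with both, beside 76.4% of all such genes. Among peaks from the median score upward, overlap was found in 97.6% of members with both, beside 98.1%. A window of 500 bp, the start side, peaks wider than the narrowest width, peak centres, members without neighbours, added ribosome proteins, CG-rich windows, any listed start and the removal of the peak of 2 members left the shares within the intervals of the values reported. The median ranks were 68.2 to 70.8 for RUNX2 and 77.5 to 79.1 for MTA1 over the 3 alternatives run on them. With starts inside the gene counted, MRPL34 and not MRPL38 had the highest RUNX2 rank, 97.3. CG-rich windows raised the background instead, and the intervals of the members there held its values. No paired analysis was possible because each antibody has 1 library. The reads behind the lists are unknown, which limits weak peaks most.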
